A study of Mus musculus with 6 samples.

Results

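The genes described here make, break down and sense prostaglandins: the cyclooxygenases Ptgs1 and Ptgs2, the terminal synthases Ptges, Ptgis and Ptgds, the degrading enzyme Hpgd and the 4 prostaglandin E receptors Ptger1, Ptger2, Ptger3 and Ptger4. They were chosen by name, and each was read from its probe with the highest mean signal. All 10 were among the 20659 gene symbols on the array, and 8 of them passed the filter on dim probes and were tested among 25788 genes. The other 2 of the 10, Ptger2 and Ptger4, are described without a test. Of the 25788, 17256 had a gene symbol, and the rest were probes without one, each counted as a gene. Male C57Bl/6N mice gave the islet cells, which were dispersed and kept in culture for 72 h. Control cells received no exosomes (n = 3 arrays). To the exoNOD cells were added exosomes, small vesicles released by cells, at 50 µg/ml (n = 3 arrays). The exosomes came from CD4+CD25- T lymphocytes cultured from NOD mice, which are prone to autoimmune diabetes. The labels name no genotype beyond the strain, and the islet and exosome preparations differed between the 3 experiments. Whether arrays of equal number come from one experiment is not stated.

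Prostaglandins are short-lived lipid signals made from arachidonic acid, which phospholipases free from membranes. A cyclooxygenase converts arachidonic acid to an unstable intermediate, and a terminal synthase then decides which prostaglandin is formed. Ptgs1 is mostly present without stimulation, while Ptgs2 is induced by cytokines in many cells, beta cells included. Prostaglandin E acts on neighbouring cells through its receptors, and in islets the receptor encoded by Ptger3 is known for restraining insulin release.

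A level is the log2 signal of a probe relative to the 75th percentile of its array, a change is the exoNOD mean minus the control mean, and values after ± are SD for means and SE for changes. Between 78.1% and 81.8% of the 43020 spots per array were well above background, 0 spots were saturated, and the number of arrays limits the precision. Hormone transcripts marked the cells as islet cells on every array (Ins2 between 8.61 and 8.73, Gcg between 8.57 and 8.72). By the scan times in the array files, the 3 control arrays and exoNOD replicate 1 were scanned together, and exoNOD replicates 2 and 3 in a second scan that held no control. Differences between the groups in the second scan and effects of that scan cannot be told apart. RNA of all islet cell types was measured together, so fewer cells of a type and less RNA per cell cannot be told apart either.

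Ptgs2 (NM_011198), the inducible cyclooxygenase, had the highest mean change of the 8 tested prostaglandin genes, and with all 6 arrays it passed the test when arrays of equal replicate number were treated as pairs but not otherwise. Its control levels were −4.24, −3.77 and −2.75 in replicates 1, 2 and 3, and its exoNOD levels were −2.82, −1.65 and −1.76. Replicates 2 and 3 of the exoNOD group lay above all controls, whereas exoNOD replicate 1 lay just below control replicate 3, so the groups overlapped. The means were −3.58 ± 0.76 in control and −2.07 ± 0.65 in exoNOD cells (SD, n = 3 each), a 2.85-fold difference (log2 change 1.51 ± 0.41, limma adjusted p = 0.184). When the replicate number was entered as a block, the SE fell to 0.20 and the gene rose (limma adjusted p = 0.00253), and the pairs differed 2.67-fold, 4.34-fold and 2.00-fold. The pairing is not stated in the labels and was read from these same data, and the fit with it called 8.36% of all genes. In pairs 2 and 3 the exoNOD array was from the second scan and the control from the first, so group and scan cannot be told apart there. Within the first scan, exoNOD replicate 1 exceeded the control mean by 0.77, which did not pass (limma adjusted p = 1). Without exoNOD replicate 1 and with no block, the change was 1.88 (limma adjusted p = 0.0440). That fit called 1289 of 25992 genes. All its exoNOD arrays were from the second scan and all its controls from the first, so group and scan cannot be told apart.

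The Ptgs2 probe was printed in 10 spots per array, which gives its error within an array. After outlier spots were left out, the median spot signal was 44.6, 65.4 and 121 units on the control arrays and 124, 281 and 265 units on the exoNOD arrays. The spots of an array had an SD between 0.035 and 0.095 on the log2 scale, against an SD of 0.76 between control arrays. Spots of control replicate 3 (110 to 130 units) overlapped those of exoNOD replicate 1 (117 to 128 units), and spots of exoNOD replicate 2 (273 to 292 units) met those of exoNOD replicate 3 (250 to 274 units). Between all other pairs of arrays the spot ranges did not overlap.

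**Figure D1:**
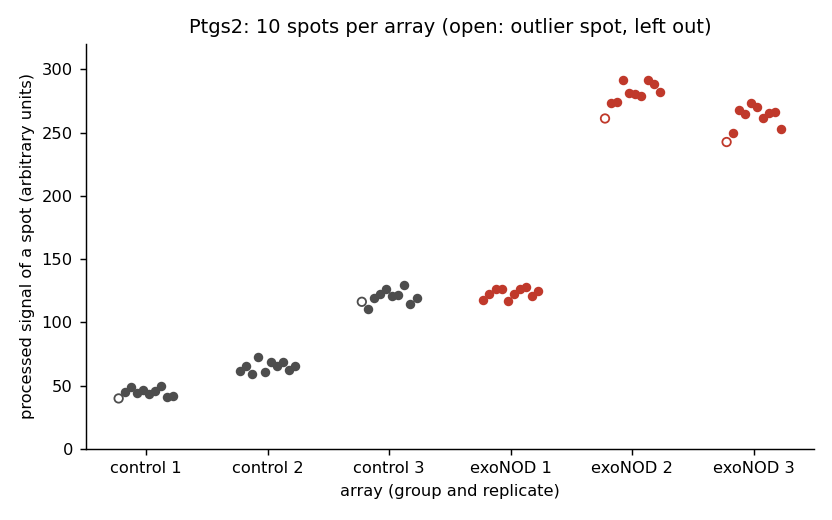
Processed signal of each of the 10 Ptgs2 spots (y axis, arbitrary units) on the 6 arrays (x axis), grey for control and red for exoNOD, with open points for spots marked as outliers and left out. The medians were 44.6, 65.4 and 121 units for control and 124, 281 and 265 units for exoNOD replicates 1, 2 and 3.

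The promoter of Ptgs2 is shown because this gene alone of the 8 passed in the paired fit, and that of Ptgs1 because its enzyme catalyses the same reaction. Sequences are from RefSeq on GRCm38.p6, plus strand, 5′ to 3′, and capitals mark matches to the motifs searched. The first 2 lines are the 250 bases before the annotated start (chr1:150099781-150100030 for Ptgs2 and chr2:36230176-36230425 for Ptgs1), and the last is a stretch of 28 bases from the Ptgs2 start onward (chr1:150100031-150100058).
Ptgs2: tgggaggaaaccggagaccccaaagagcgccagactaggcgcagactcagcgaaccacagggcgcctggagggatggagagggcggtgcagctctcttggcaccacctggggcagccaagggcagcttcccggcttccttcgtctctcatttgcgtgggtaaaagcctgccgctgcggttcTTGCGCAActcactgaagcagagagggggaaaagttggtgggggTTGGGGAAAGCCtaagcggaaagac
Ptgs1: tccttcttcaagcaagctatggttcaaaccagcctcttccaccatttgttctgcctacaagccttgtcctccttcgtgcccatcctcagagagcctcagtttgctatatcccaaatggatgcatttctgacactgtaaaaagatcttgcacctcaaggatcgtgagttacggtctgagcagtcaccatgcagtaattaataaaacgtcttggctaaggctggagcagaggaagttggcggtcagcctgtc
Ptgs2 start: agagtcaccactaCGTCACGTGgagtcc

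The motifs were searched on both strands of the 300 bases from 250 before to 50 after each start, in 32851 promoters. Ptgs2 held the C/EBP motif (TTNNGNAA) at −69 to −62 and at −25 to −18, a motif present in 40.7% of all promoters. It held the NF-kB motif, which is 3 G and 2 C separated by any 5 bases and is present in 50.8% of promoters, at −23 to −14, where it overlaps the second C/EBP match. Just inside the start, the CRE core (TGACG, 20.8% of promoters), read on the minus strand at 14 to 18, overlaps the E-box (CACGTG, 7.15%) at 17 to 22. The E-box contains the hypoxia response core (ACGTG, 19.6%) on both strands. The full CRE (TGACGTCA, 1.79%) and the TATA motif (TATAAA, 13.6%) were not in this window. The promoter table held 8 of the 10 prostaglandin genes, with Ptger2 and Ptger4 but without Ptgis and Ptger1, so they are not the 8 tested. Of them, 6 matched the NF-kB motif, 5 the C/EBP motif, 2 the hypoxia response core and 1 the TATA motif. The CRE core and the E-box were each matched in 1 of 8, Ptgs2, beside 20.8% and 7.15% of all promoters. Ptgs1 held 1 match in its window, to the NF-kB motif at 28 to 37. Such matches describe letters and show no binding.

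Ptgs1 (NM_008969), the cyclooxygenase that many cells carry without stimulation, had a positive change that did not pass with or without the block when all 6 arrays were used. Control levels were −5.19, −5.48 and −4.43, and exoNOD levels were −4.93, −3.64 and −3.80, in replicates 1, 2 and 3. As for Ptgs2, exoNOD replicates 2 and 3 lay above all controls and exoNOD replicate 1 within their range. The log2 change was 0.91 ± 0.38 (1.88-fold, limma adjusted p = 0.290, and 0.0754 with the replicate block). With the block and only 2 pairs, the change was 1.23 without replicate 1 (limma adjusted p = 0.000153), 1.05 without replicate 3 (adjusted p = 0.0142) and 0.44 without replicate 2 (adjusted p = 0.294). Without replicate 1, 4271 of 26138 genes passed, and group and scan coincided, so they cannot be told apart. Pair 2 differed 3.58-fold and the other pairs 1.20-fold and 1.54-fold, and within the first scan exoNOD replicate 1 lay 0.10 above the control mean.

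**Figure D2:**
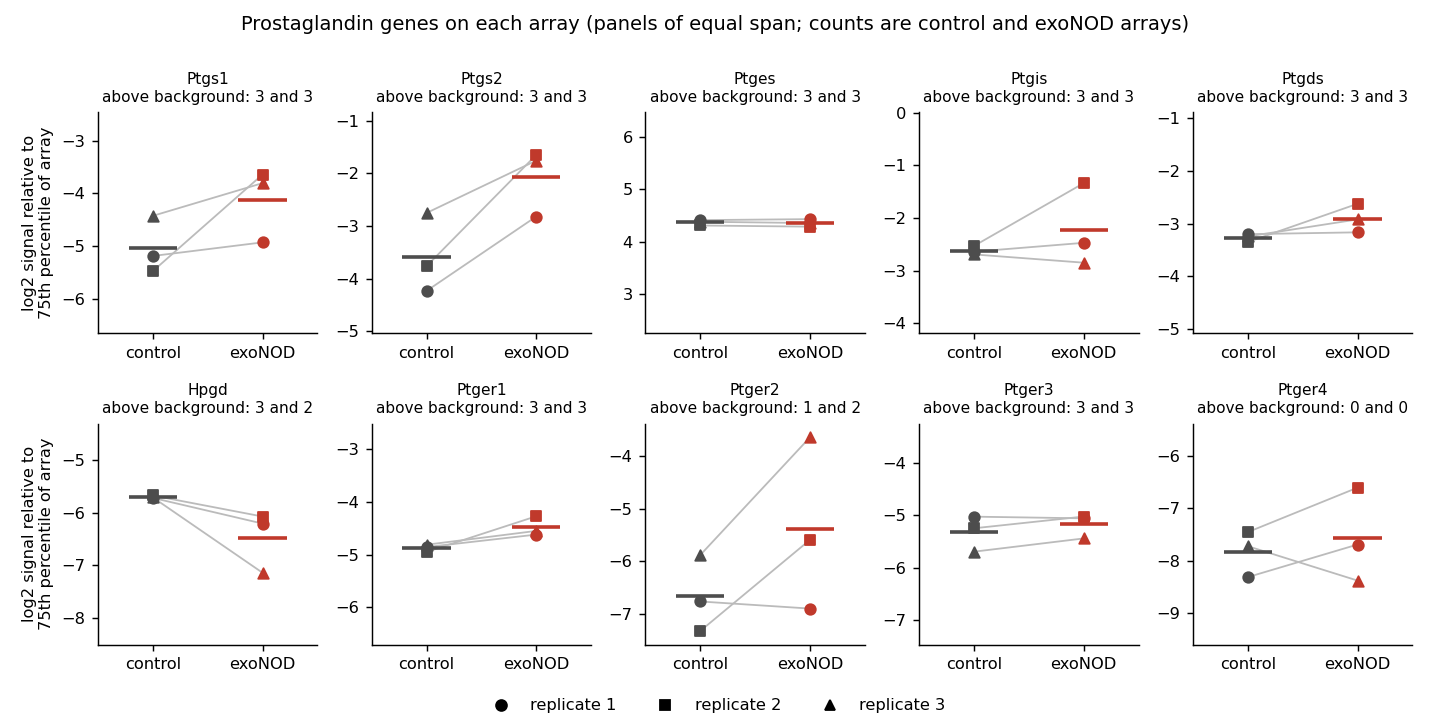
Log2 level relative to the 75th percentile of the array (y axis) of the 10 prostaglandin genes in control and exoNOD cells (x axis), with a symbol per replicate, grey lines joining equal replicate numbers and bars at the group means. Panel titles give on how many control and exoNOD arrays the probe was well above background: Ptger4 was on 0 and Ptger2 on 1 and 2, and in the Ptgs2 panel every line rises.

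The terminal synthases did not pass in either fit of all 6 arrays. Ptges (NM_022415), the inducible prostaglandin E synthase, had control levels of 4.41, 4.31 and 4.38 and exoNOD levels of 4.43, 4.29 and 4.36. These 6 values lie within a narrow band in which the groups overlap. The change was −0.01 ± 0.09 (95% interval −0.21 to 0.19, limma adjusted p = 0.966). The other Ptges probe, with the same accession, gave 0.20, and the mean of both probes gave 0.09 (limma adjusted p = 0.632). The sign of the small change depends on the probe, and levels of different probes cannot be set against each other.

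Ptgis (NM_008968), which forms prostacyclin, was raised on a single array. Its control levels were −2.64, −2.53 and −2.69, and its exoNOD levels −2.47, −1.34 and −2.85. exoNOD replicate 2 stood well above the other arrays, and exoNOD replicate 3 was the lowest of all 6. The change was 0.40 ± 0.33 (limma adjusted p = 0.554), and without exoNOD replicate 2 it was −0.04 (limma adjusted p = 0.927). With the block and only 2 pairs, it was 0.52 without replicate 1 (limma adjusted p = 0.0304), 0.68 without replicate 3 (adjusted p = 0.00798) and 0.01 without replicate 2 (adjusted p = 0.986). Without replicate 1, group and scan again coincided. Ptgds (NM_008963), which forms prostaglandin D, had control levels of −3.20, −3.35 and −3.24 and exoNOD levels of −3.17, −2.62 and −2.92. Its groups did not overlap, although exoNOD replicate 1 lay only just above the highest control. The change was 0.36 ± 0.17 (1.29-fold, limma adjusted p = 0.321). For Ptgs1, Ptgs2, Ptgis, Ptgds, Ptger1 and Ptger3 alike, exoNOD replicate 2 was the highest of the 6 arrays, and that array also had the highest median signal of all probes (140 units, against 112 to 129 on the others).

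Hpgd (NM_008278), the dehydrogenase that inactivates prostaglandins, was lower on all exoNOD arrays and did not pass in either fit of the processed signals. Control levels were −5.72, −5.67 and −5.71, and exoNOD levels were −6.20, −6.07 and −7.14. The controls lay close together and every exoNOD array lay below them. The control signals were 1.71 times those of exoNOD cells on average (log2 change −0.77 ± 0.30, limma adjusted p = 0.268, and 0.121 with the block). The signals were faint, between 15.6 and 17.3 units in control and between 6.31 and 13.2 in exoNOD cells, and exoNOD replicate 3 was not well above background. Without that array the change was −0.44 (limma adjusted p = 0.559). Hpgd passed the filter through its control arrays alone, the group in which it is high, so its tests are favoured by that choice. A dimmer probe of the gene, below the filter, gave −0.67, whereas normexp background correction gave 0.76 for the brighter one. The median over all genes tested was 0.35 with normexp, −0.11 with median scaling and 0.04 in the fit reported here. On the authors' deposited log2 values with the block, the change was −1.04 (limma adjusted p = 0.0480), which rests on the same faint array, against 4.77% of all genes called in that fit (3.29% higher and 1.48% lower).

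The receptors were faint, and of the 2 tested with all 6 arrays neither passed. Ptger1 (NM_013641), which signals through calcium, had control levels of −4.86, −4.95 and −4.81 and exoNOD levels of −4.62, −4.27 and −4.55. The groups did not overlap, and the change was 0.39 ± 0.18 (1.31-fold, limma adjusted p = 0.307). Ptger3 (NM_011196), which lowers cAMP, had control levels of −5.03, −5.25 and −5.69 and exoNOD levels of −5.06, −5.02 and −5.44, which overlap. Its change was 0.15 ± 0.24 (95% interval −0.39 to 0.69, limma adjusted p = 0.773), with 0.51 for its dimmer probe and −0.09 after quantile normalization.

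Ptger2 and Ptger4 raise cAMP when prostaglandin E binds. Ptger2 (NM_008964) was well above background on 1 control and 2 exoNOD arrays and was not tested. Its signals were 7.80, 5.51 and 13.8 units in control and 7.29, 18.4 and 71.5 in exoNOD cells. exoNOD replicate 3 was far brighter than every other array, while exoNOD replicate 1 lay within the control range. With the filter removed the change was 1.28 (limma adjusted p = 0.484). It passed the filter only when exoNOD replicate 1 was left out, through the brighter group alone, so no call is drawn from those fits. Ptger4 (NM_008965) was well above background on 0 arrays, with signals between 2.66 and 9.05 units, so no difference was detectable.

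Across the 8 tested genes, 0 passed in limma without the block, against 0.105% of all genes in either direction (0.101% higher and 0.00388% lower), and 3 had an unadjusted p below 0.05, against 16.6% of all genes. With the replicate block 1 of 8 passed, Ptgs2, which rose, against 8.36% of all genes (6.63% rose and 1.73% fell). The groups did not overlap with exoNOD higher for 2 of 8 (Ptgds and Ptger1), against 14.6% of all genes, and with exoNOD lower for 1 of 8 (Hpgd), against 7.78%. Ptgs1, Ptgs2, Ptgds and Ptger1 were higher in all 3 pairs, 4 of 8 against 29% of all genes, and 1 of 8 (Hpgd) was lower in all pairs, against 22.1%. Hpgd, also among the 3 with an unadjusted p below 0.05, passed the filter through its control arrays alone, the group in which it is high. The counts that include it are favoured by that choice, and no support is drawn from them. The change was above 0 for 6 of 8, against 55.4% of all genes, and below 0 for 2 of 8, against 44.6%. The median log2 change of the 8 genes was 0.38, against 0.04 for all genes tested.

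**Figure D3:**
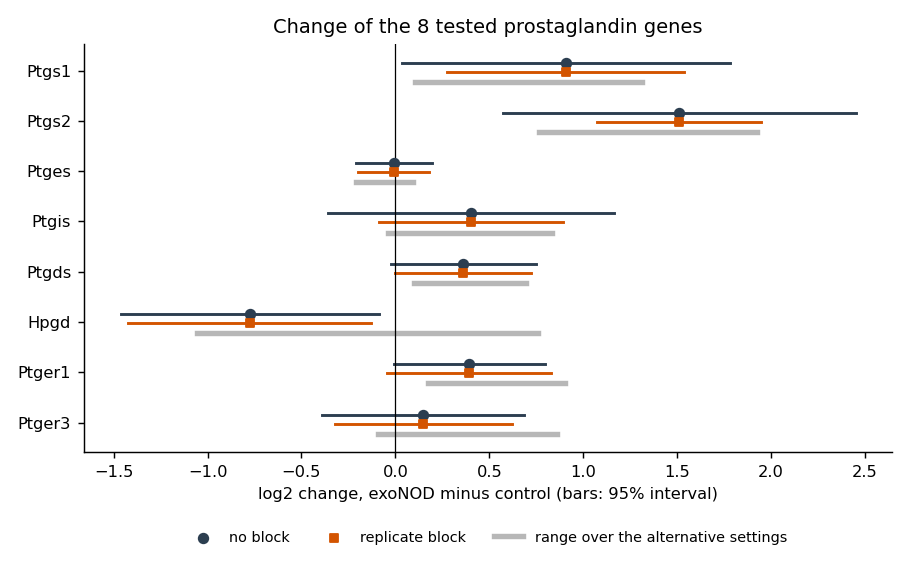
Log2 change, exoNOD minus control (x axis), of the 8 tested prostaglandin genes (y axis), with 95% intervals without the block (dark circles) and with it (orange squares); grey bars span the values under the alternative settings. The Ptgs2 interval lies above 0 in both fits (0.57 to 2.45 and 1.07 to 1.95), and that of Ptges spans 0.

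Other genes of prostanoid synthesis, transport and sensing were taken from a fixed list of 18, of which 17 had a probe and 15 were tested. Without the block 0 passed in limma, and 3 of 15 had an unadjusted p below 0.05, against 16.6% of all genes. With the block 2 rose and 0 fell, against 6.63% and 1.73% of all genes. The first was Ptgir, the prostacyclin receptor, with control levels of −4.68, −4.72 and −4.20 and exoNOD levels of −3.26, −2.72 and −3.44. All exoNOD arrays lay above all controls, in the first scan too, where exoNOD replicate 1 lay 1.27 above the control mean. The change was 1.39 ± 0.23 (2.63-fold, limma adjusted p = 0.0803, and 0.00603 with the block). Ptgir was higher in all 3 pairs, and Ptgis, the synthase of its ligand, in 2. The second was Akr1c18, an aldo-keto reductase of progesterone and prostaglandin metabolism, with a change of 0.67 ± 0.21 (limma adjusted p = 0.223, and 0.0162 with the block). Its levels ran from −0.95 to −0.73 in control cells and were −0.71, −0.05 and 0.15 in exoNOD cells, so exoNOD replicate 1 barely exceeded the controls and lay 0.17 above their mean in the first scan.

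The remaining synthases of this list did not pass in either fit. The changes were −0.19 for Ptges2 and 0.00 for Ptges3, the other prostaglandin E synthases, 0.17 for Hpgds, the haematopoietic prostaglandin D synthase, and 0.17 for the thromboxane synthase Tbxas1. The prostaglandin F synthases Akr1b3 and Prxl2b changed by −0.04 and −0.25, and the prostaglandin reductase Cbr1 by −0.21. Of these, Ptges2 and Cbr1 had exoNOD levels below all controls, as had 7.78% of all genes. For Ptges2, exoNOD replicate 1 (−1.027) lay only just below control replicate 1 (−1.014). Of the receptors, the thromboxane receptor Tbxa2r changed by 0.23 and the prostaglandin D receptor Ptgdr2 by −0.10. The prostaglandin D receptor Ptgdr and the prostaglandin F receptor Ptgfr were not well above background on any array.

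Among 13 tested genes of arachidonate release, 0 passed in limma without the block, and 4 had an unadjusted p below 0.05, against 16.6% of all genes. With the block 1 rose and 2 fell, against 6.63% and 1.73% of all genes. Pla2g4a, the cytosolic phospholipase that frees arachidonic acid, had control levels of −2.14, −2.28 and −1.84 and exoNOD levels of −1.75, −1.32 and −1.29. All exoNOD arrays lay above all controls, and the change was 0.64 ± 0.17 (1.55-fold, limma adjusted p = 0.183, and 0.0188 with the block). Its paralogue Pla2g4b changed by 0.32 (0.0517 with the block in limma). The secreted phospholipase Pla2g2f changed by −0.36 ± 0.10 (limma adjusted p = 0.179, and 0.0266 with the block) and lay 0.38 below the control mean in the first scan as well. Mgll, a monoglyceride lipase, changed by −0.47 (0.0411 with the block in limma), but by −0.20 without exoNOD replicate 3. It changed by −0.13 when its probes that passed the filter were averaged, by 0.14 with normexp background correction and by −0.01 in the first scan. Without exoNOD replicate 1 and with no block, Ptgir, Akr1c18 and Pla2g4a passed in limma (adjusted p = 0.0341, 0.0155 and 0.0425). That fit called 1289 of 25992 genes, and group and scan coincided in it, so they cannot be told apart.

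**Figure D4:**
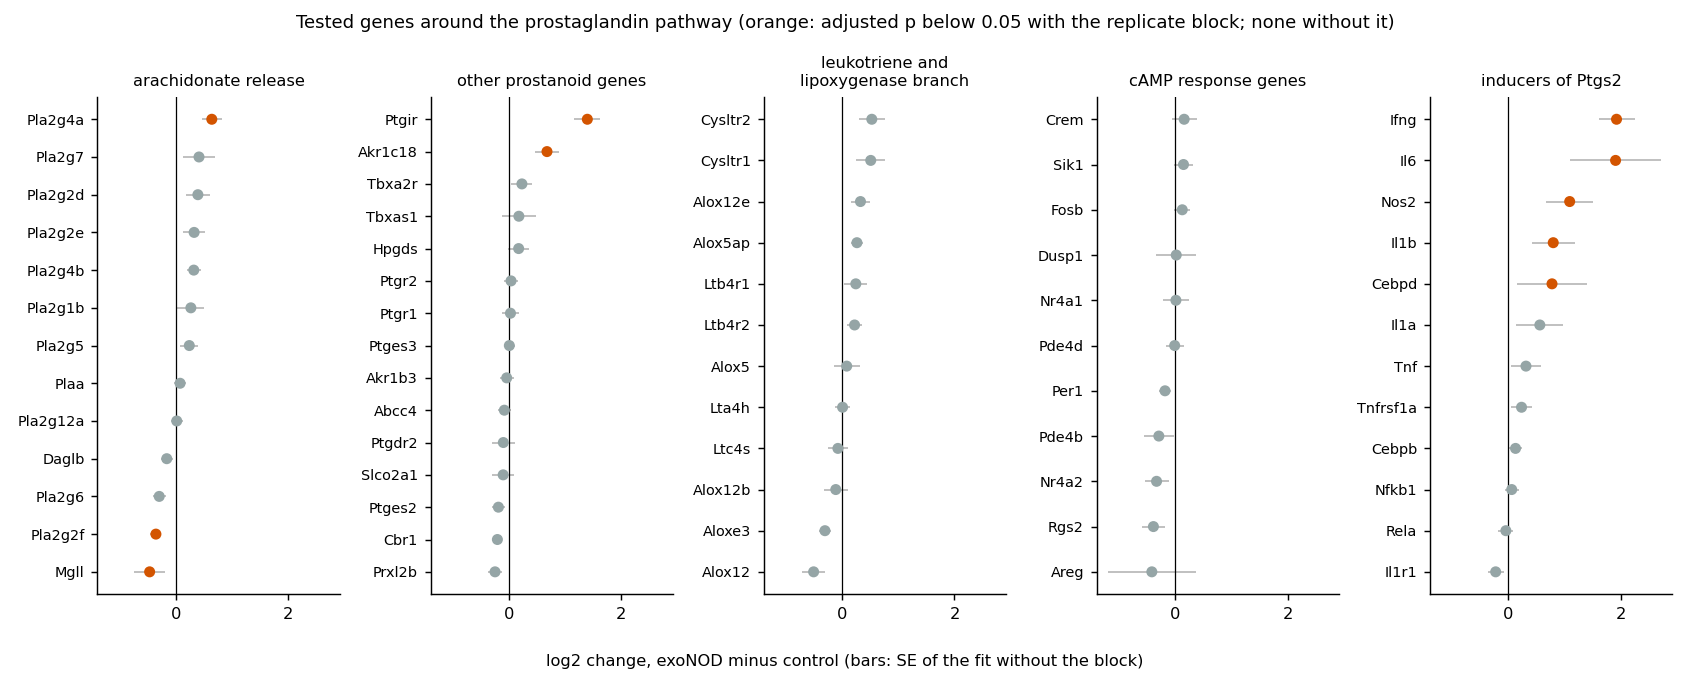
Log2 change, exoNOD minus control (x axis), with the SE of the fit without the block, of the tested genes in the 5 lists around the pathway (one gene per line). Orange points passed with the replicate block: Pla2g4a, Pla2g2f and Mgll, Ptgir and Akr1c18, and 5 genes of the list of inducers, of which Ifng was not well above background on any control array, so that its plotted point is a fitted value and no measured fold; no point passed without the block.

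The 12 tested genes of the leukotriene and lipoxygenase branch, which also starts from arachidonic acid, did not pass in either fit. In limma without the block, 3 of 12 had an unadjusted p below 0.05, against 16.6% of all genes. Those with the lowest p were the lipoxygenases Alox12 (−0.51) and Aloxe3 (−0.31) and the 5-lipoxygenase activating protein gene Alox5ap (0.26). Of 11 tested genes known to respond to cAMP, 0 passed in either limma fit. Without the block 0 of them had an unadjusted p below 0.05, against 16.6% of all genes. The median change of this list was −0.01, and 5 of 11 had a change above 0 and 6 below, against 55.4% and 44.6% of all genes. Those named for a low p were Rgs2 at −0.39, Nr4a2 at −0.33, Pde4b at −0.29 and Per1 at −0.18.

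Known inducers of Ptgs2 and partners of its induction had a median change of 0.44, against 0.04 for all genes, and 10 of 12 tested had a change above 0, against 55.4%. In limma 0 passed without the block, and 3 of 12 had an unadjusted p below 0.05, against 16.6% of all genes. With the block 5 rose and 0 fell, against 6.63% and 1.73% of all genes. The cytokine gene Il6 had levels of −3.97, −3.97 and −1.05 in control and −2.01, −1.48 and 0.24 in exoNOD cells. As for Ptgs2, control replicate 3 was the highest control, here above exoNOD replicates 1 and 2. Its change was 1.91 ± 0.82 (limma adjusted p = 0.294, and 0.00103 with the block). The transcription factor gene Cebpd changed by 0.78 (0.00168 with the block in limma), the interleukin 1 beta gene Il1b by 0.80 (0.00321) and Nos2, which encodes a nitric oxide synthase, by 1.09 (0.00231). Leaving out 1 array moved these changes, to 1.25 for Il6, 0.13 for Cebpd and 0.38 for Il1b without exoNOD replicate 3, and to 2.88 for Il6 and 1.40 for Cebpd without control replicate 3. In the first scan, exoNOD replicate 1 exceeded the control mean by 0.99 for Il6, 0.44 for Nos2, 0.63 for Il1b and 0.09 for Cebpd. The interferon gamma gene Ifng was well above background on 0 control and 3 exoNOD arrays, and it passed the filter through the exoNOD arrays alone. Its exoNOD level was at least 2.75-fold higher than the control bound (limma adjusted p = 0.0771, and 0.00258 with the block). The tests of Ifng are favoured by that filter, and it is included in the 5 that rose and the 10 with a change above 0.

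The 6 named genes whose profile over the 6 arrays lay closest to that of Ptgs2 were Timp1, Colec12, Ereg, Egr2, Ccbe1 and Chat. Likeness was the root mean square difference of the levels after each gene was centred on its own mean, and it ran from 0.25 for Timp1 to 0.31 for Chat. Timp1, an inhibitor of matrix proteases, had levels of 0.37, 0.50 and 1.20 in control and 1.67, 2.33 and 2.68 in exoNOD cells. In contrast to Ptgs2 its groups did not overlap, and it changed by 1.54 (limma adjusted p = 0.0846). The arrays share scan and signal scale, so closeness over 6 arrays is a description.

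**Figure D5:**
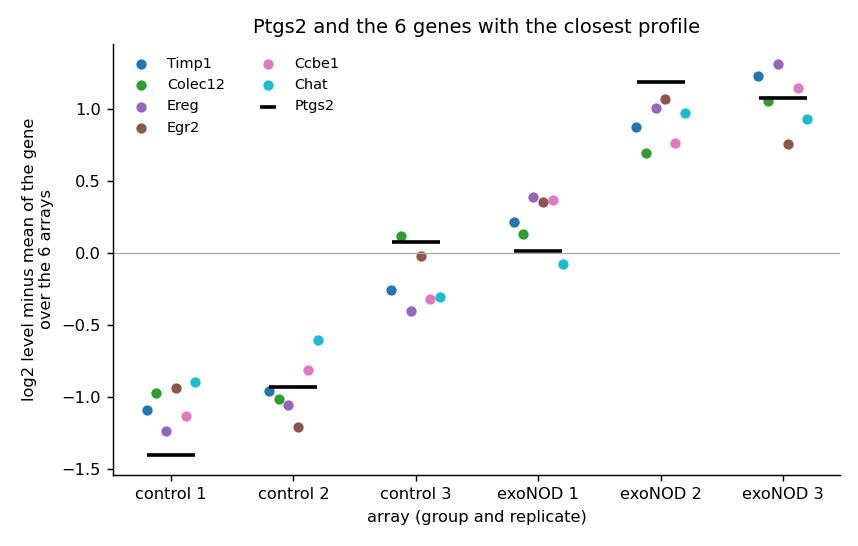
Log2 level of a gene minus its own mean over the 6 arrays (y axis) on each array (x axis), black bars for Ptgs2 and points for the 6 genes with the closest profile. Control replicates 1 and 2 lie lowest, control replicate 3 and exoNOD replicate 1 lie in the middle and exoNOD replicates 2 and 3 highest, as for Ptgs2 itself.

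Marker lists of cell types that could be in the culture were summed on each array, each signal taken relative to the 75th percentile, and calls are from limma with the block unless stated. With the block, 6.63% of all genes rose and 1.73% fell, which is the share to set beside the calls of every marker list. Bright markers weigh most in such sums. The signals of Ins2 (339000 to 359000 units) and Gcg (333000 to 354000 units) lay close to the brightest spot of an array (365857 to 406730 units). Whether signals so near the top still follow the amount of RNA was not tested. The beta cell markers (9 of 9 tested, 1 higher) summed to 1090 to 1150 on control and 1060 to 1080 on exoNOD arrays. Of these 9, 5 fell, against 1.73% of all genes, and 0 passed without the block. The 5 were Slc2a2 (−0.83), Ucn3 (−0.73), Nkx6-1 (−0.42), Pdx1 (−0.37) and Mafa (−0.30). In the first scan, exoNOD replicate 1 differed from the control mean by −0.25, −0.45, −0.27, 0.04 and −0.19 for these genes. The alpha and delta cell markers (7 of 7 tested, 0 higher) summed to 535 to 574 and 498 to 521, and 0 passed. Without the block 0 of 7 had an unadjusted p below 0.05 in limma, against 16.6% of all genes. The macrophage markers (8 of 9 tested, 2 higher) summed to 24.4 to 27.3 and 18.9 to 20.4. The brightest, Itgam, weighs most here, with mean levels of 4.17 in control and 3.67 in exoNOD cells, against 2.12 and 1.85 for C1qa, the next. Csf1r (−0.02), Cd14 (−0.07), Lyz2 (−0.02), C1qb (0.02) and C1qa (−0.27) did not pass. Adgre1 (−0.87, limma adjusted p = 0.0173) and Itgam (−0.50, adjusted p = 0.00963) fell, and Mrc1 passed as higher, although it was well above background on 1 control and 3 exoNOD arrays and passed the filter through the latter alone.

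The fibroblast and stellate markers (9 of 9 tested, 5 higher) summed to 54.3 to 79.4 and 64.3 to 90.5, with control replicate 3 the highest control, and Pdgfra (1.23) and Thy1 (0.45) rose. The endothelial markers (7 of 8 tested, 3 higher) summed to 7.25 to 8.36 and 8.68 to 9.31. Among them the bright Plvap rose (0.43) while Cdh5 (−0.80) and Emcn (−0.98) fell, and Tie1 was not well above background on any array. Tek, counted among the 3 higher, was well above background on 2 control and 3 exoNOD arrays and passed the filter through the latter alone. The duct markers (7 of 7 tested, 4 higher) summed to 4.72 to 6.93 and 7.21 to 9.53, and Spp1 (1.56) and Cftr (0.82) rose. The acinar markers (8 of 8 tested, 6 higher) summed to 1.76 to 2.03 and 1.90 to 2.63, and Cpa1 (0.64) rose. Ptf1a, counted among the 6, was well above background on 1 control and 3 exoNOD arrays and passed the filter through the latter alone.

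The mast cell markers (4 of 8 tested, 3 higher) summed to 0.838 to 0.923 and 1.26 to 1.38. Tpsb2 rose without the block too (1.29, limma adjusted p = 0.0300, and 0.000719 with it), Hdc changed by 0.03 and Kit by −0.44 without passing, and the defining genes Cpa3, Fcer1a, Ms4a2 and Cma1 were not well above background on any array. The T lymphocyte markers (5 of 8 tested, 4 higher) summed to 14.1 to 18.9 and 14.0 to 18.4, with Lck raised (0.63) and Cd3g not well above background on any array. The B lymphocyte markers (6 of 6 tested, 6 higher) summed to 0.783 to 0.969 and 1.11 to 1.61. Cd79b (1.05) and Blnk (0.82) rose, and Ms4a1, well above background on 0 control and 3 exoNOD arrays, passed as higher through the exoNOD arrays alone. The part of a changed cell mixture in the difference of Ptgs2, Ptgs1, Ptgir, Pla2g4a or Hpgd was not tested.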

How the data were processed

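Dispersed islet cells were profiled on 6 single-colour Agilent arrays (Cy3). Per the file headers, the deposited intensity of a spot is the background-subtracted processed signal of Agilent Feature Extraction 11.0.1.1; no scaling across arrays had been applied to it. Flags of 0 or 1 in the deposited files (unit other) mark outlier, saturated and well-above-background spots. Deposited log2 values, also used, are the authors' own, whose method is not given in the sources used here.

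Outlier spots were dropped where a probe had another spot (23 probes kept theirs), log2 spot values were averaged, and each array was scaled to its 75th percentile. A probe was kept if every array of 1 or both groups showed it well above background (31063 of 39429). Symbols came from RefSeq accessions (27234 probes matched), and the brightest probe stood for a gene. The fit used limma 3.58.1 under R 4.3.3 with the data.table package, version 1.17.8 (eBayes with a trend; Benjamini-Hochberg adjustment over all genes, threshold 0.05) and was tested on simulated data. Normexp used the median signal (offset 50), since the files hold no mean signal column.

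Equal replicate numbers are not stated to share a preparation. Deviations from the group means correlated across genes at 0.361, 0.278 and 0.471 for equal numbers and between −0.338 and 0.00868 for unequal ones. Equal numbers were therefore taken as pairs. Deviations cancel out within a group, so the values for unequal numbers are not independent of those for equal ones. The pairing was read from the same data as the tests with the block. Named genes were the 10 members, the 3 of lowest p per pathway list in each fit, any pathway gene past the threshold, the other prostanoid synthases and receptors, and the 6 closest to Ptgs2; cell type markers past the threshold are also named. Members and lists were chosen with earlier results of these data known. Alternatives were other scalings, filters, probe rules, blocks and leaving out arrays; 1, keeping outlier spots, was chosen after seeing the data.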

Additional observations from a re-analysis of the deposited data

How the results depend on the processing

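With the replicate block that pairs equal numbers, 1 prostaglandin gene, 10 other pathway genes and 2157 of all genes passed in limma, against 0, 0 and 27 without it. With quantile normalization and the block these counts were 1, 11 and 1168, and with the authors' values and the block 2, 11 and 1231. Leaving out 1 array without the block gave 0 to 1, 0 to 4 and 0 to 1289, each highest without exoNOD replicate 1. Without that array, or without pair 1, all exoNOD arrays were from the second scan and all controls from the first. Leaving out a pair with the block gave 1 to 4, 4 to 15 and 329 to 4271 (1798 without replicate 3), each highest without replicate 1. The 4 prostaglandin genes counted there include Ptger2, which passed the filter through the exoNOD arrays alone and from which no call is drawn. With only 2 pairs the error rests on few samples. Of all genes, 13 passed with median scaling, 158 with normexp, 0 with no filter on dim probes (4622 at an unadjusted p below 0.05), 2 with scan as a block and 2 in scan 1 alone.

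Ptgs2, Ptgs1, Ptgds and Ptger1 had a change above 0 in all 21 alternatives run. Ptges changed sign with scan as a block or in scan 1 alone (0.0637), with the mean of its probes (0.0938), and without control replicate 1 (0.0125) or exoNOD replicate 2 (0.0262), within a range of −0.0458 to 0.0262 when 1 array was left out. When 1 array was left out, Ptgis ranged from −0.0389 (without exoNOD replicate 2) to 0.718. With normexp and no array left out, Hpgd changed sign, at 0.757. Ptger3 was at −0.0911 after quantile normalization and −0.0934 on the authors' values, with or without the block, and ranged from −0.0372 (without control replicate 3) to 0.296 when 1 array was left out. The cause was not tested. Faint signals limit Hpgd and the receptors, and 3 arrays per group limit every comparison.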
